A study of Homo sapiens with 2 samples.

Results

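The annexins are a family of genes whose proteins bind acidic phospholipids, such as phosphatidylserine, when calcium rises, and so attach to the inner face of membranes. They share a core of annexin repeats that carries the calcium sites, and differ in their amino-terminal tails, which bind partner proteins, in several cases small EF-hand calcium sensors of the S100 group. Members of the family are known for membrane repair, for transport of vesicles, for linking membranes to actin, and, in squamous epithelium, for high levels of ANXA1 and ANXA2. The 10 genes described here are ANXA1, ANXA2, ANXA3, ANXA4, ANXA5, ANXA6, ANXA7, ANXA8, ANXA10 and ANXA11, taken by gene name out of 60725 genes in the table. The members were chosen from the ratio of normalised read counts in CD44 high over CD44 low cells, the same values that are given below, so every ratio of a member between the libraries is a description and was not tested.

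The cells were KYSE30-Luc-GFP, a human esophageal squamous cell carcinoma line that carries luciferase and GFP as labels, and both groups carry both labels. The cells were grown in culture, stained with an antibody to CD44, a hyaluronan receptor on the cell surface, and separated in a flow cytometer by how much CD44 they bore, as CD44 high or CD44 low. Messenger RNA of each group was sequenced as 1 library, of 21633236 expected counts for CD44 high and 22859583 for CD44 low, so nothing here measures the spread between cultures or sorts, and the cell line is the only model. The comparison asks how RNA levels differ between the sorted groups, which the study used to stand for cells with more and with less of its metastasis-initiating signature. The expected counts of CD44 itself were 22819 for CD44 high against 9727 for CD44 low, in the direction of the labels. Epithelial markers were present in both libraries, with KRT8 at 2246 and 1664 TPM and EPCAM at 324 and 242 TPM. Of the squamous markers, TP63 was at 41.05 TPM in CD44 high and 76.04 TPM in CD44 low, while KRT14 was at 1.37 and 3.33 TPM and KRT5 had 0 and 8 counts. Among markers of other cell types, the fibroblast genes COL1A2, DCN and LUM, the lymphocyte gene CD3E and the endothelial gene KDR had 0 counts in both libraries. The summed level of the 6 fibroblast genes was 4.84 TPM in CD44 high and 6.58 TPM in CD44 low, nearly all of it from COL1A1, at 175 and 292 counts. The 5 leukocyte genes summed to 3.84 and 3.24 TPM, most of it from CSF1R, and the 4 endothelial genes to 0.38 and 0.06 TPM. Transcripts of the mitochondrial genome made up 7.50% of the CD44 high counts and 14.00% of the CD44 low counts, and 17.0% and 29.6% of the TPM. Their part in the values of the annexins was not tested, except through the scalings given below.

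The values are on several scales. Expected counts are reads assigned to a gene, scaled counts are these divided by a size factor close to 1, and TPM, a share of all transcripts of a library, is a level per length that allows genes to be compared. A gene was measured when it had at least 50 expected counts in a library, which 12371 genes did, and it was called when its ratio of scaled counts passed a stated fold and the 95% interval of the ratio lay away from equality. The intervals are exact binomial intervals that cover counting error only, and reads made by PCR are not independent molecules, so they are too narrow for a difference between groups of cells. Of the 10 members, 8 were measured. ANXA6 and ANXA10 were not.

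Of the 8 measured annexins, 1 was at least 2-fold higher in CD44 high cells and 0 were at least 2-fold lower. Over all measured genes, 1.24% were called at least 2-fold higher and 4.2% at least 2-fold lower. At 1.5-fold, 1 member was higher and 1 was lower, against 4.93% and 10.4% of all measured genes. Since the members were chosen on this contrast, nothing is read from these counts. The gene called higher was ANXA3 and the gene called lower was ANXA8. The other 6 measured members lay between -0.41 and 0.29 on the log2 scale. The median log2 ratio of scaled counts was -0.01 over the 8 measured members and 0.01 over all measured genes.

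The sequences that bear on these results are those where reads of one annexin transcript can or cannot be told from another. They come from GENCODE 44 on GRCh38, the build the files name, read 5′ to 3′ on the strand of the gene. The first is the coding exon by which transcripts of ANXA7 differ, exon 6 of 14 in ANXA7-201 (chr10:73396044-73396109, minus strand, 66 bases), and it is shown because the share of the transcripts with it differed between the libraries. The second is exon 3 of 13 in ANXA3-201 (chr4:78573180-78573267, plus strand, 88 bases), which ANXA3-209 lacks. Capitals mark the exon and lower case the 20 bases on each side in the spliced transcript.
ANXA7 exon: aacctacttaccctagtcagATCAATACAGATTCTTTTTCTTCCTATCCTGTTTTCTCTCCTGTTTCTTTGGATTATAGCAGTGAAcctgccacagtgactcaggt
ANXA3 exon: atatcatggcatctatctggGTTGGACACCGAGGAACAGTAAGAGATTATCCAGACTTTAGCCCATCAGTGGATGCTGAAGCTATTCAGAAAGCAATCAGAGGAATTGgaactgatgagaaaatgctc
The ANXA7 exon is a whole number of codons, and the coding sequence is 1467 bases with it and 1401 without it, stop codon included. The ANXA3 exon is not, and in ANXA3-209 the annotated coding sequence starts in the next exon and is 855 bases long in place of 972.

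The third pair is the exon in which ANXA8 and its near-identical copy ANXA8L1 differ most closely, shown because reads that span no differing base fit both genes. ANXA8-205 and ANXA8L1-204 have a coding sequence of 984 bases each, of which 5 bases differ (99.5% identity), and the longest stretch without a difference is 408 bases. ANXA8L1-204 held 8.66% of the ANXA8L1 counts in CD44 high and 12.1% in CD44 low. The transcript with the most counts, ANXA8L1-203, held 31.2% and 57.1% and was not compared. Counted from the first base of the start codon, with the base of ANXA8 first, the differences are T16G, C276T, A528G, G530C and T939C. The exon shown (60 bases, coding bases 493 to 552) lies at chr10:47474945-47475004 on the minus strand for ANXA8 and at chr10:46384774-46384833 on the plus strand for ANXA8L1, and capitals mark the 2 bases that differ.
ANXA8 exon: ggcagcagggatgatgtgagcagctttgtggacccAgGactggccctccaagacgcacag
ANXA8L1 exon: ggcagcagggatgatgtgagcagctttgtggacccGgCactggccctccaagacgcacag

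The most abundant annexins were the pair that are best known at the membrane and cortex of squamous cells. ANXA2 (chr15:60347134-60402883, minus strand), which forms a complex with S100A10 and binds actin and plasminogen activators at the surface, was at 2382 TPM in CD44 high and 2132 TPM in CD44 low, rank 49 and 46 of all genes by TPM. ANXA1 (chr9:73151757-73170393, plus strand), the glucocorticoid-regulated annexin that binds S100A11 and acts on formyl peptide receptors when secreted, was at 662 and 762 TPM. ANXA2 alone held 66.1% of the summed TPM of the 10 members in CD44 high and 64.0% in CD44 low, and ANXA1 held 18.4% and 22.9%. ANXA2 was 3.60 times as abundant as ANXA1 by TPM in CD44 high and 2.80 times in CD44 low. Together with the remaining members they summed to 3604 TPM in CD44 high and 3329 TPM in CD44 low. Mitochondrial transcripts took 17.0% of the TPM in CD44 high and 29.6% in CD44 low, so no direction is read from these sums.

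As a share of all counts the 10 members took 0.307% of the CD44 high library (exact binomial interval 0.305% to 0.309%) and 0.299% of the CD44 low library (0.297% to 0.301%). Without the mitochondrially encoded genes in the total, the shares were 0.332% and 0.348%, and the order of the libraries turned. The summed share therefore gave no direction that held across both totals.

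**Figure D1:**
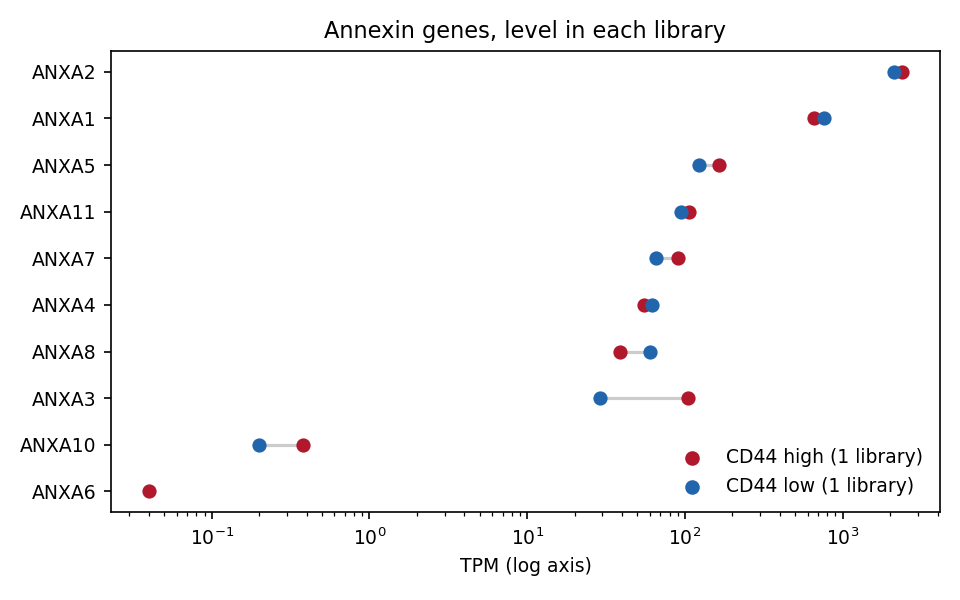
Level of each of the 10 annexins in TPM (log axis) in the CD44 high library (red) and the CD44 low library (blue), 1 point per library, with genes ordered by their level in CD44 low. ANXA2 and ANXA1 sit highest, the points of ANXA3 lie farthest apart among the measured genes, at 104 and 29.0 TPM, and ANXA6 has no blue point because it was at 0 there.

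Below that pair, ANXA5, ANXA11, ANXA7, ANXA4, ANXA8 and ANXA3 lay between 28.98 and 166 TPM, and the order of the levels differed between the libraries. In CD44 high cells it was ANXA5, ANXA11, ANXA3, ANXA7, ANXA4 and ANXA8, and in CD44 low cells ANXA5, ANXA11, ANXA7, ANXA4, ANXA8 and ANXA3. ANXA3 was thus the lowest of the 8 measured members in CD44 low cells and the fifth in CD44 high cells. Neighbours that counting error does not separate were ANXA11 (102 to 111 TPM) and ANXA3 (99.9 to 109 TPM) in CD44 high, and ANXA7 (63.0 to 68.7 TPM), ANXA4 (58.6 to 65.0 TPM) and ANXA8 (57.6 to 63.4 TPM) in CD44 low. By TPM there was 0.369 times as much ANXA8 as ANXA3 in CD44 high and 2.09 times as much in CD44 low. The TPM of a gene also sums transcripts with no defined coding sequence, so the order need not be that of coding transcripts. In CD44 high, ANXA11-207 of this kind was at 44.84 TPM and the coding ANXA11-203 at 50.47 TPM, against 79.13 TPM for ANXA3-201. ANXA7-205 and ANXA4-204, also of this kind, held 23.3% and 27.3% of the TPM of their genes there.

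ANXA3 (chr4:78551519-78610451, plus strand), an annexin abundant in neutrophils and studied as a marker in several carcinomas, had the largest ratio of the family. It had 2114 expected counts in CD44 high and 650 in CD44 low, and 104 against 28.98 TPM. The scaled counts were 3.25-fold higher in CD44 high cells (counting interval 2.98 to 3.56). The log2 ratio was 1.70, which was rank 40 from the top among the 12371 measured genes. Both counts were whole numbers, as they are where RSEM divides no read with another gene, and no other gene of the table overlapped its span. In a bulk library, a change in the share of cells that express a gene and a change in the RNA per cell cannot be told apart. The share of ANXA3 in the summed annexin TPM was 2.90% in CD44 high and 0.870% in CD44 low. The nearest measured protein-coding genes on chromosome 4 did not have a ratio of that size. MRPL1, a mitochondrial ribosomal protein gene 599 kb before it, was at 0.56 on the log2 scale (counting interval 0.38 to 0.75), in the same direction. BMP2K, a kinase gene 166 kb after it, was at 0.00 (-0.13 to 0.14). Whether the region has a part in the ratio of ANXA3 was not tested, and ratios of neighbours are given for no other member. The ratio of ANXA3 stayed between 1.64 and 1.81 on the log2 scale over all 11 alternative settings, some of which cannot change the ratio of a single gene.

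ANXA8 (chr10:47460162-47484158, minus strand), an annexin of stratified epithelium known for late endosomes, was the member with the lowest ratio. It had 986 expected counts in CD44 high and 1700 in CD44 low, and 38.54 against 60.47 TPM. The scaled counts were 1.72-fold higher in CD44 low cells (counting interval 1.59 to 1.86), a log2 ratio of -0.78. Its copy ANXA8L1 (chr10:46375627-46537864, plus strand) had 251 and 469 expected counts, and its scaled counts were 1.86-fold higher in CD44 low cells (1.60 to 2.18). Neither gene had whole counts, and with 5 differing coding bases between the transcripts compared above, the split of reads between the genes is uncertain. Summed, the 2 genes had 1237 and 2169 counts and were 1.75-fold higher in CD44 low cells (1.63 to 1.88), a value for the pair that does not depend on how reads were divided between them. ANXA8 took 79.7% of this sum in CD44 high and 78.4% in CD44 low. One transcript that the files count under ANXA8L1 is named LINC00842-201 in GENCODE 44, and it held 27.9% of the ANXA8L1 counts in CD44 high and 14.4% in CD44 low.

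**Figure D2:**
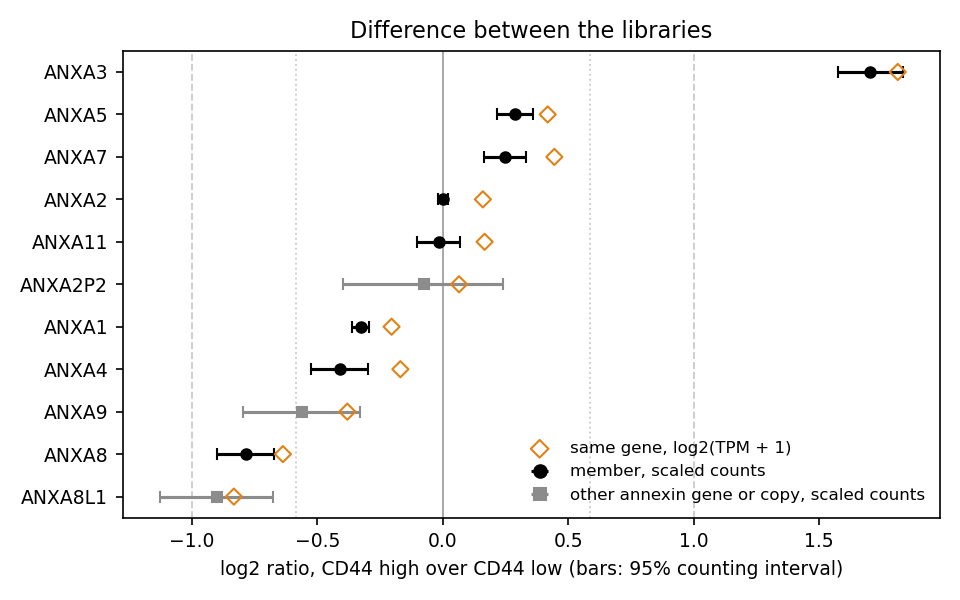
Log2 ratio between the libraries, positive where CD44 high is higher, for the 8 measured members (black circles) and for ANXA8L1, ANXA9 and ANXA2P2 (grey squares), from scaled counts with 95% counting intervals, beside log2(TPM + 1) differences (open diamonds). Dotted and dashed lines mark 1.5-fold and 2-fold, and each diamond lies to the right of its circle or square. The median of all measured genes was 0.01 by scaled counts and 0.17 on the log2(TPM + 1) scale.

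ANXA1 and ANXA4 were lower in CD44 high cells by less than 1.5-fold. ANXA1 had 12857 expected counts in CD44 high and 16141 in CD44 low, which made its scaled counts 1.25-fold higher in CD44 low cells (1.23 to 1.28). ANXA4 (chr2:69644425-69827100, plus strand), an annexin of many epithelia, had 1093 and 1455 counts and was 1.33-fold higher in CD44 low cells (1.23 to 1.44). The span of ANXA4 overlaps AAK1, an endocytic kinase gene on the opposite strand with 2009 and 2140 counts. No source used here says that reads were counted by strand. The counts of both genes were whole numbers in both libraries, as they are where RSEM divides no read with another gene. On the log2(TPM + 1) scale the difference was -0.20 for ANXA1 and -0.17 for ANXA4.

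ANXA5 and ANXA7 were higher in CD44 high cells by less than 1.5-fold. ANXA5 (chr4:121667955-121697113, minus strand), the phosphatidylserine binder that is used to stain dying cells, had 3501 and 2867 counts and scaled counts 1.22-fold higher in CD44 high cells (1.16 to 1.28). ANXA7 (chr10:73375101-73414076, minus strand), also called synexin, which fuses membranes and binds the EF-hand protein sorcin, had 2461 and 2075 counts and was 1.19-fold higher (1.12 to 1.26). Both kept this direction under all 11 alternative settings, as ANXA3 did and with the same limit.

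ANXA2 and ANXA11 had nearly equal counts in the libraries. ANXA2 had 41218 and 41265 expected counts, a log2 ratio of 0.00 with a counting interval from -0.02 to 0.02. ANXA11 (chr10:80150889-80205572, minus strand), which carries RNA granules on lysosomes and binds S100A6 and PDCD6, had 2191 and 2217 counts and a log2 ratio of -0.02 (-0.10 to 0.07). On the log2(TPM + 1) scale the differences were 0.16 for ANXA2 and 0.17 for ANXA11, close to the median of all measured genes on that scale, 0.17. ANXA2 has processed copies in the genome, of which ANXA2P2 (chr9:33624274-33625293) matches 98.4% of its coding sequence, with a longest identical stretch of 221 bases. ANXA2P2 had 162 and 171 expected counts and ANXA2P1 had 14.5 and 6.99, none of them whole, and ANXA2P3 had 0 in both libraries. ANXA2 held 99.6% of the counts of the 4 loci in both libraries, and with the copies added its log2 ratio was again 0.00.

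**Figure D3:**
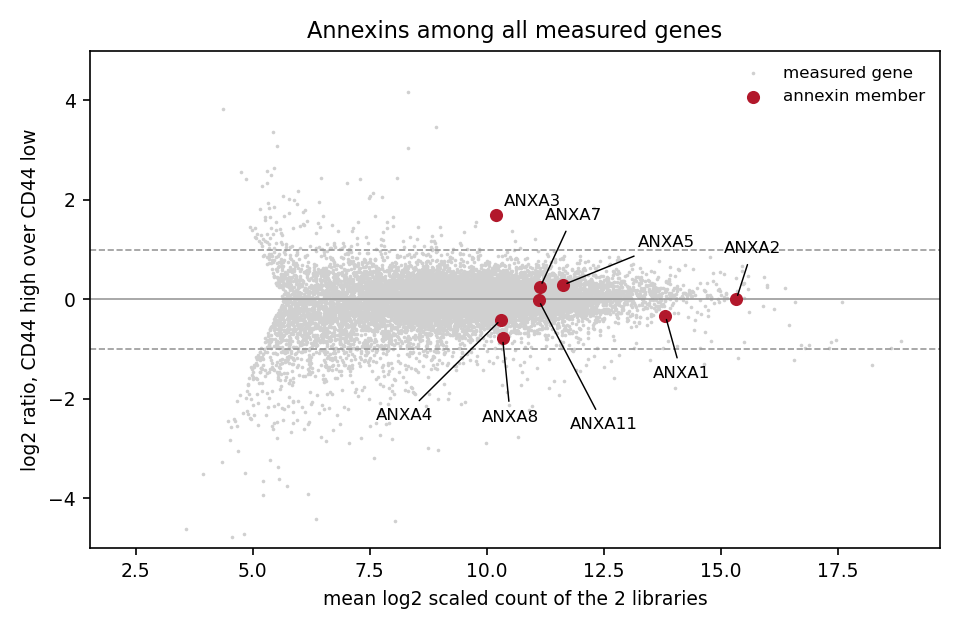
Log2 ratio between the libraries (CD44 high over CD44 low) against the mean log2 scaled count for all 12371 measured genes (grey) and the 8 measured annexins (red), with dashed lines at 2-fold. ANXA3 is the only red point outside the dashed lines, and 10 grey points lie beyond the drawn range.

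The 2 members that were not measured were near 0. ANXA6 (chr5:151100712-151157882), a larger annexin with a doubled core that is found in many tissues, had 1 expected count in CD44 high and 0 in CD44 low, which is under the 3 counts that a count of 0 allows, so no fold is given. The nearest measured genes on either side of it, TNIP1 and CCDC69, had 2754 and 38 counts in CD44 high and 2399 and 58 in CD44 low. ANXA10 (chr4:168092515-168187690), an annexin of gastric epithelium, had 5 and 4 counts, and the counting interval of its log2 ratio ran from -1.89 to 2.66. Of the annexin genes that are not members, ANXA9 (chr1:150982017-150995634), an annexin whose calcium sites have lost key residues, had 258 and 381 counts and scaled counts 1.47-fold higher in CD44 low cells (1.26 to 1.73), which was not past 1.5-fold. ANXA13, the intestinal annexin, had 0 counts in both libraries, which allows up to 3 counts in each. ANXA2R, named as a receptor of ANXA2, had 17 and 12 counts.

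The transcripts of the members were compared by their share of the TPM of their gene. Over the 8 measured genes, 16 transcripts held at least 10% in a library, and 5 of them differed by at least 5 percentage points between the libraries. These 5 belong to ANXA1, ANXA3 and ANXA7. By share of expected counts, 4 transcripts did, and they belong to ANXA3, ANXA4 and ANXA7. Shares are estimates by RSEM, and reads that fit several transcripts were divided by its model. How often transcripts differ by as much over all genes was not computed, so nothing is read from these counts of transcripts.

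For ANXA7, the transcript with exon 6, ANXA7-201, held 22.1% of the gene in CD44 high and 31.9% in CD44 low, and ANXA7-202 without it held 54.2% and 50.4%. The form with the exon is known from muscle and brain. In expected counts ANXA7-201 had 593 and 697 and ANXA7-202 had 1661 and 1255, so the form without the exon was the one that had more counts in CD44 high cells. As a share of the counts of the gene, ANXA7-201 held 24.1% in CD44 high (exact interval 22.4% to 25.8%) and 33.6% in CD44 low (31.6% to 35.7%). These intervals do not overlap, but they cover counting error only and not the division of reads by RSEM. The transcripts also differ at their ends, with lengths of 2174 and 2443 bases, so the shares do not rest on reads of the exon alone. Another transcript with no defined coding sequence, ANXA7-205, held 23.3% and 16.2% of the TPM.

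For ANXA3, the main transcript ANXA3-201 held 75.8% of the gene in CD44 high and 82.4% in CD44 low, with 1747 and 585 expected counts. ANXA3-209, which lacks the exon shown above, held 10.3% and 5.18%, with 185 and 28.59 counts. Both transcripts had more counts in CD44 high cells, at 1.57 and 2.67 on the log2 scale. By counts ANXA3-209 held 8.75% of the gene in CD44 high (7.58% to 10.04%) and 4.40% in CD44 low (3.01% to 6.34%). For ANXA1, ANXA1-201 held 92.9% and 87.0%.

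The remaining transcripts differed by less than 5 percentage points of TPM. ANXA2-204 held 65.2% of ANXA2 in CD44 high and 66.3% in CD44 low, and ANXA5-201 held 61.1% and 60.8% of ANXA5, beside ANXA5-202 at 30.5% and 26.9%. ANXA4-201 held 23.8% and 28.3% of the TPM of ANXA4, and 46.9% and 52.5% of its counts. ANXA8-205 held 75.7% and 78.0% of ANXA8. ANXA11-203 held 47.3% and 47.5% of ANXA11, beside ANXA11-207, a transcript with no defined coding sequence, at 42.1% and 40.9%. By counts that second transcript was 5.71% and 5.33% of ANXA11.

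**Figure D4:**
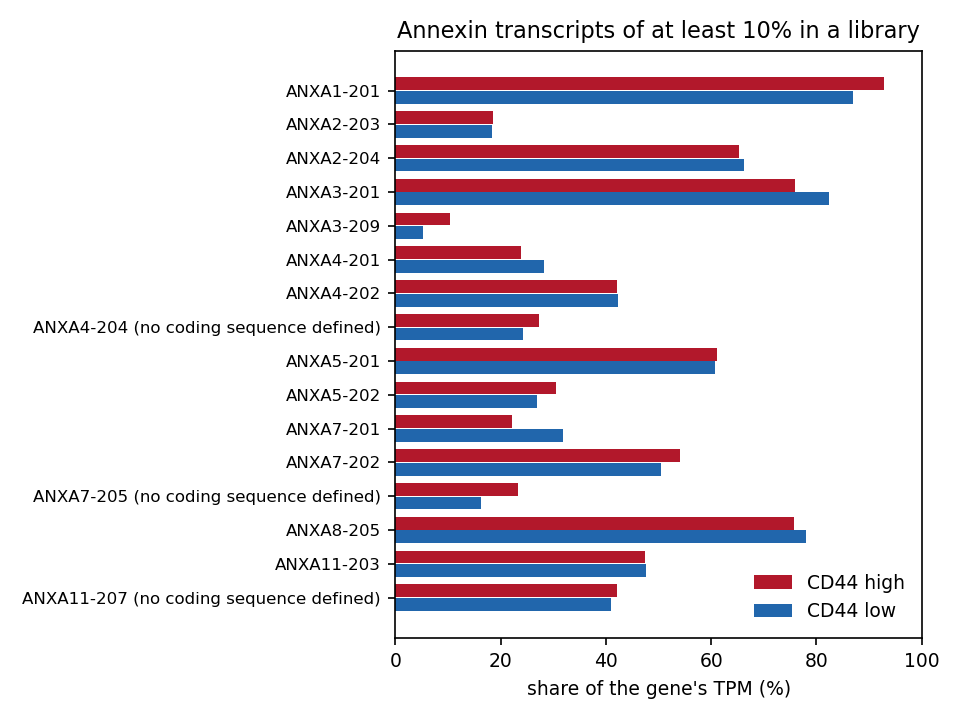
Share of the TPM of the gene (%) held by each of the 16 annexin transcripts of at least 10% in a library, in CD44 high (red) and CD44 low (blue). The bars differ most for ANXA7-201, at 22.1% and 31.9%, and by less than 5 percentage points for each transcript of ANXA2, ANXA4, ANXA5, ANXA8 and ANXA11.

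The EF-hand partners of the annexins were mostly abundant and 0 of 6 measured genes passed 1.5-fold in either direction. At that fold 4.93% of all measured genes were called higher and 10.4% lower, so nothing is read from this count. S100A10, which pairs with ANXA2, was at 1471 TPM in CD44 high and 1555 TPM in CD44 low, a log2 ratio of scaled counts of -0.21. By TPM there was 1.62 times as much ANXA2 as S100A10 in CD44 high and 1.37 times as much in CD44 low. S100A11, the partner of ANXA1, was at 2243 and 2228 TPM, with a log2 ratio of -0.13, and ANXA1 was 0.295 and 0.342 times its level. S100A6, which binds ANXA11 and other annexins, was at 1171 and 1353 TPM, with a log2 ratio of -0.35. S100A4 had 89 and 116 counts. PDCD6 and SRI (sorcin) were at 90.40 and 166 TPM in CD44 high and 83.36 and 155 TPM in CD44 low. S100B and S100A12 had 0 counts in both libraries and S100A1 had 2 in each. The log2 ratios of the 6 measured partners lay between -0.38 and -0.04, with a median of -0.17.

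The receptors and surface partners were measured less evenly. FPR1, FPR2 and FPR3, the formyl peptide receptors on which secreted ANXA1 acts in leukocytes, had 0 counts in both libraries, which allows up to 3 counts each. Of the surface and cortex partners of ANXA2, 5 of 6 were measured, 0 were called higher and 2 lower at 1.5-fold. With 4.93% of all measured genes called higher and 10.4% lower at that fold, nothing is read from these counts. PLAT, tissue plasminogen activator, had 265 counts in CD44 high and 507 in CD44 low, a log2 ratio of -0.93. AHNAK2 had 2055 and 3500, a log2 ratio of -0.77. AHNAK, the giant scaffold that binds the complex of ANXA2 with S100A10, had 31112 and 32311 counts and a log2 ratio of -0.05. The plasminogen receptor gene PLGRKT had 215 and 185 counts, and PLG, plasminogen, had 0 in both.

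Other calcium-dependent membrane binders, repair genes and lipid transporters gave 1 call among their measured genes. The shares called at 1.5-fold over all measured genes were 4.93% higher and 10.4% lower, and nothing is read from the counts in these lists. Of the copines, ferlins and extended synaptotagmins, 9 of 17 were measured and 0 were called in either direction. The most abundant were CPNE1 at 292 TPM in CD44 high and 234 TPM in CD44 low and MYOF (myoferlin) at 146 and 157 TPM. Of the calpains and ESCRT genes, 13 of 14 were measured and 0 were called, with log2 ratios from -0.52 for CHMP2A to 0.41 for TSG101. The most abundant of these were CAPNS1, the small calpain subunit, at 535 and 484 TPM, and CAPN2 at 284 and 252 TPM. The muscle repair gene TRIM72 had 1 count in each library. Of the phosphatidylserine scramblases and flippases, which set the lipid that annexins bind, 8 of 10 in the table were measured and 0 were called higher. PLSCR4, a scramblase-family gene, was called lower at 2-fold, as 4.2% of all measured genes were. It had 13 counts in CD44 high and 51 in CD44 low, and its scaled counts were 3.81-fold higher in CD44 low cells (2.10 to 7.85). Only its CD44 low count reached the minimum of 50, so PLSCR4 was measured through the library where it was higher. The remaining 7 lay between -0.44 and 0.17 on the log2 scale.

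**Figure D5:**
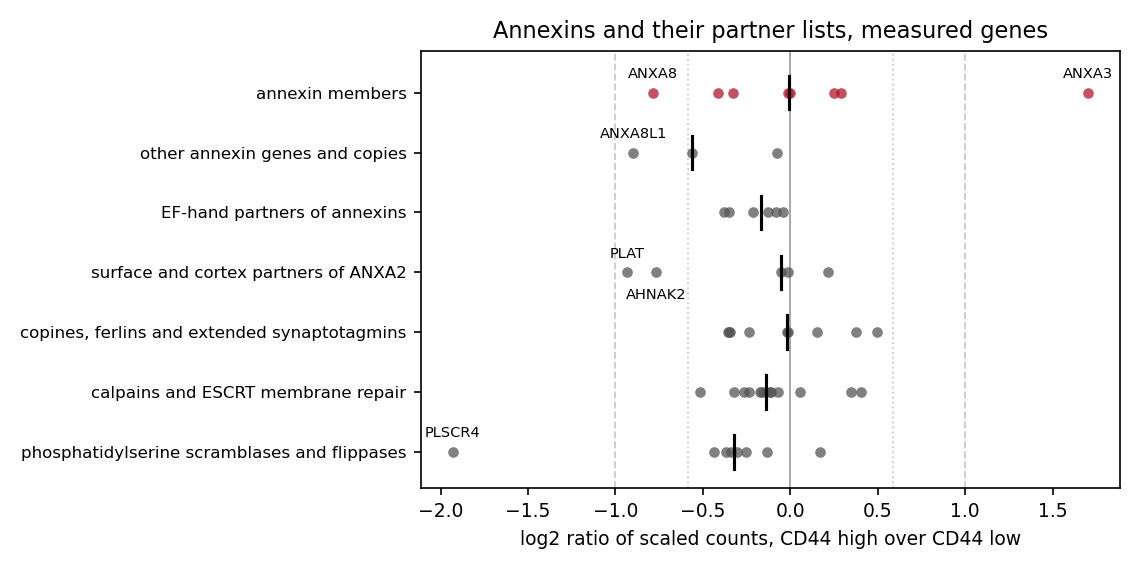
Log2 ratio of scaled counts for the measured genes of the annexin members (red) and of 6 related lists (grey), 1 point per gene, with a black bar at the median of each list and lines at 1.5-fold and 2-fold. Genes past 1.5-fold are named, and ANXA3 is the only one of them on the CD44 high side.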

How the data were processed

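Poly(A) RNA of sorted KYSE30-Luc-GFP cells was sequenced as 1 CD44 high and 1 CD44 low library, grouped by their sample labels. The authors mapped reads with STAR 2.7.8 to GRCh38, took expected counts from RSEM 1.2.31, and used EBSeq 1.18.0 for their comparison. They deposited expected counts divided by a size factor, and TPM, the RSEM level per length and per library. Whether reads were counted by strand or by molecular identifier, and on which annotation release, is named by no source used here. Columns of fold change, posterior probability and FDR that were deposited hold the authors' own comparison and were not used. Of the columns of per-sample values, 0 were left out.

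Expected counts were recovered as whole multiples of the smallest step (0.01 count) of each deposited column. Scaling was by median of ratios, with a prior count of 0.5 in ratios and a minimum of 50 expected counts in a library. Genes were called at 2-fold and 1.5-fold with the 95% exact binomial interval, on rounded counts, away from equality. With 1 library per group there was no test. The call rule was tested on simulated data that held counting error only. That test does not bear on PCR copies, the division of reads by RSEM or the spread between sorts. Depth limits precision through counting error, which the intervals cover alone. The named genes were the 10 members, all other annexin genes and copies, and from each partner list the called genes, or else the 2 of highest TPM, beside fixed partners. AAK1, MRPL1, BMP2K, TNIP1, CCDC69 and the ends of list ranges were named after their values were seen. Of the leukocyte markers, 1 is not reported here. The members and lists were chosen with earlier results of these data known. Alternatives were TMM factors (edgeR 4.0.16), total counts with and without mitochondrially encoded genes, log2(TPM + 1), a prior count of 5, minimum counts of 20, 200 and none, copies summed, a length trend removed, and the deeper library thinned. Python 3.11.15, numpy, scipy, pandas, statsmodels and matplotlib were used. Sequences are from GENCODE 44, and ANXA2 was aligned to its copies with Biopython 1.88 (global alignment).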

Additional observations from a re-analysis of the deposited data

How the results depend on the processing

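The counts of members called at 2-fold and at 1.5-fold, in each direction, were the same under all 11 alternative settings, where calls on log2(TPM + 1) used size alone. The median log2 ratio of the measured members, -0.01 as reported, was 0.0702 with total counts, 0.16 on log2(TPM + 1) and -0.0768 with the length trend removed, and the cause was not tested. With no minimum count it was 0.12, but over all 10 members. There ANXA6 and ANXA10 entered, while the ratios of the other 8 members were as reported. The log2(TPM + 1) scale raised the median of all genes too, to 0.15 over the 14672 genes at 1 TPM or more, and made 47.0% of the 2-fold calls over all genes higher, against 22.7% as reported. ANXA2 and ANXA11 were above 0 in 4 of 12 settings each and below 0 in 8, so neither has a direction. Settings that change only the minimum count cannot change the ratio of a single gene. Summing copies cannot change the ratio of a member other than ANXA2 or ANXA8. In these cases the settings add nothing to such counts of settings. ANXA1, ANXA4 and ANXA8 stayed below 0 and ANXA3, ANXA5 and ANXA7 above 0. The share of the members in CD44 high was 0.307% of counts, 0.332% without mitochondrially encoded genes and 0.360% of TPM, and in CD44 low 0.299%, 0.348% and 0.333%. By share of counts in place of TPM, 4 transcripts differed by 5 percentage points in place of 5, and they were partly others: ANXA3-201 and ANXA7-201 stayed, ANXA1-201 (4.53 points), ANXA3-209 (4.35) and ANXA7-205 (2.79) dropped out, and ANXA4-201 (-5.53) and ANXA7-202 (7.02) came in. No paired analysis was possible because each group has 1 library, and no library could be left out.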
